A study of Mus musculus with 62 samples.

Results

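In 10 genes of different pathways, a clone that had more of the transcript as a progenitor tended to have more of it as a monocytic cell. The genes are Smpdl3a, Abca8b, Akr1c13, Gkap1, Galnt1, Lrrk2, Tns1, Bmpr1a, Spint2 and Cln8. These 10 genes, of 37620 in the count table, were chosen by the correlation of their level between the 2 states of the same clone, so that correlation is given here as a description without a test. All 10 passed the filter on low counts, as did 11614 genes in all.

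ER-Hoxb8 cells are mouse bone marrow progenitors held in culture by a Hoxb8 protein fused to part of the oestrogen receptor. The labels give the genotype no further and name no agent or time. The 24 clones, numbered 1 to 13 and 15 to 25, were each sequenced once as a granulocyte-monocyte progenitor (labelled Plus) and once as a monocytic cell (labelled Minus), which gave 48 libraries. All were labelled as grown in RPMI with serum, antibiotics and stem cell factor. Each clone descends from 1 cell and has 1 library per state, so a difference between clones holds both the clone and the culture. Primary monocytes were flow-sorted from mouse bone marrow as classical, intermediate and nonclassical cells, and as class 1 to class 4, whose meaning the labels do not give. Each of these 7 groups has 2 libraries, 14 in all, and nothing in the labels says whether the replicates came from separate mice, so p-values measure the spread between these samples. Age, sex and strain of the mice are not in the labels used here.

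Clones 1 to 13 are called the earlier-numbered and clones 15 to 25 the later-numbered clones, and depth differed between these sets. Progenitor libraries of clones 1 to 13 held 12.6 to 47.3 M counts and those of clones 15 to 25 held 0.362 to 16.5 M. Monocytic libraries held 22.9 to 34.5 M and 1.83 to 9.12 M in the same order, and primary libraries 21.2 to 35.0 M. The shallowest was the clone 21 progenitor, where 3 counts equal 8.29 CPM (counts per M counts of the library), so a 0 there limits little. The 9 monocyte markers summed to 1657 to 4290 CPM in progenitors and 6320 to 49435 CPM in monocytic cells. The 9 neutrophil markers, all detected, summed to 15.3 to 10064 CPM in progenitors and 331 to 156926 CPM in monocytic cells, against 1391 and 1648 CPM in the classical monocytes. In 3 clones the library labelled monocytic held more of the 9 progenitor markers than the progenitor library of the same clone: 14948 against 13437 CPM in clone 17, 17363 against 16061 in clone 19 and 30817 against 14722 in clone 22. Their monocyte markers were higher than in the progenitors, at 15850, 8100 and 6320 CPM against 2226, 1676 and 3590 CPM. Results over clones are also given without these 3 clones, an alternative chosen after seeing the data. In bulk RNA, fewer cells of a type and less RNA per cell cannot be told apart.

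The genes work in different parts of the cell. Bmpr1a encodes a type I receptor for bone morphogenetic proteins (BMPs), which signals by phosphorylating Smad1 and Smad5. Tns1 encodes tensin 1, which ties integrins to actin, and Spint2 a membrane-bound Kunitz inhibitor of serine proteases such as hepsin and matriptase. Lrrk2 encodes a kinase of Rab GTPases that is abundant in myeloid cells, and Cln8 a membrane protein of the endoplasmic reticulum that helps lysosomal enzymes leave for the Golgi. Gkap1 encodes an anchor of cGMP-dependent protein kinase and Galnt1 an enzyme that starts mucin-type O-glycosylation. Smpdl3a encodes a secreted phosphodiesterase related to acid sphingomyelinase and is a known target of liver X receptors in macrophages. Abca8b encodes a lipid transporter of the ABCA family and Akr1c13 an aldo-keto reductase. Akr1c13 has near-identical copies, so its counts are uncertain.

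The stretch before the transcription start also differs among them. RefSeq promoters (GRCm38.p6) were matched by symbol for 6 of the 10 genes. The dinucleotide CG (read on 1 strand, which is the same on the other) occurs 36 times in the 250 bases upstream of Bmpr1a, 30 times at Tns1, 24 at Spint2, 22 at Lrrk2, 6 at Abca8b and 2 at Akr1c13. The median of all 32851 promoters of that length is 6, and 17.9% have 20 or more. Annotated exons cover 141 of the 250 bases at Bmpr1a, 49 at Lrrk2, 37 at Akr1c13 and 0 at Tns1, Spint2 and Abca8b. Tns1 and Abca8b are printed to show a CG-dense promoter beside one whose CG count is the median of all promoters. CG is in capitals, and both genes lie on the minus strand (Tns1 at chr1:74124549-74124798, Abca8b at chr11:109995846-109996095, 5′ to 3′ along the gene, with no annotated exon in either window).
Tns1: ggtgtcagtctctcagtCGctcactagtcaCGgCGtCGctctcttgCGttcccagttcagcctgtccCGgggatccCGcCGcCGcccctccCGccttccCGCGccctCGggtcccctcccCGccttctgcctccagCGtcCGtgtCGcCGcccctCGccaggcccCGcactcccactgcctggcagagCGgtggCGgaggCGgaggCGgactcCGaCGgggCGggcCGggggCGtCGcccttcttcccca
Abca8b: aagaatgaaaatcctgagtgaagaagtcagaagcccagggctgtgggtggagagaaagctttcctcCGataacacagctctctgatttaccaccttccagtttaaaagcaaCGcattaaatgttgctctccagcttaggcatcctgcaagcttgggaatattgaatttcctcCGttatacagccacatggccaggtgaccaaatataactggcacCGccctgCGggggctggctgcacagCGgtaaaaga
No methylation or binding was measured, so these counts are a description of the sequence only.

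Over the 24 clones the Pearson r of progenitor and monocytic log2 CPM lay between 0.791 and 0.893 for the 10 genes, with a median of 0.834, against a median of 0.19 for all tested genes. The rank correlations were lower, from 0.556 at Spint2 to 0.848 at Smpdl3a. Within clones 1 to 13 they ran from 0.253 at Akr1c13 to 0.802 at Tns1. Within clones 15 to 25 they ran from 0.418 at Bmpr1a to 0.964 at Lrrk2. Of the 11614 genes tested in the same way, 8.14% had a positive correlation with a permutation adjusted p under 0.05. The rule used these values, so nothing is read from the genes' place in that share. Without clones 17, 19 and 22 the r of the 10 genes lay between 0.80 and 0.926, and in the other 8 of clones 15 to 25 between 0.766 and 0.976. No numeric limit came with the rule, so there are no values just inside and just outside it.

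**Figure D1:**
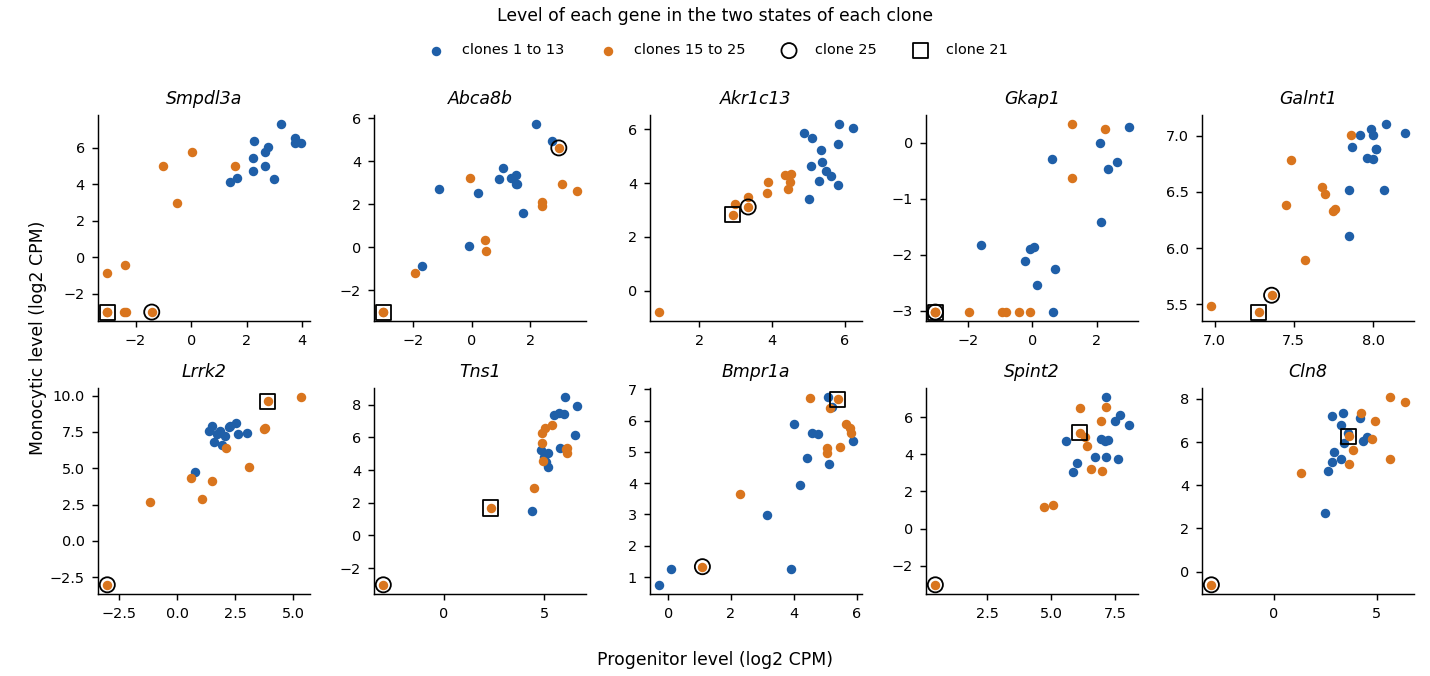
Progenitor level (x, log2 CPM) against monocytic level (y, log2 CPM) for each of the 10 genes. Each point is 1 clone, blue for clones 1 to 13 and orange for clones 15 to 25, with clone 25 circled and clone 21 boxed. Clone 25 sits alone at the lower left for Lrrk2, Tns1, Spint2 and Cln8, and many orange points of Smpdl3a and Gkap1 lie at the value of 0 counts.

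Bmpr1a and Tns1 had the highest within-set correlation among clones 1 to 13. Bmpr1a ran from 0.702 CPM (clone 5) through a median of 30 to 58.2 CPM (clone 11) in progenitors, and from 1.56 CPM (clone 5) through 38.1 to 108 CPM (clone 10) in monocytic cells. Clone 4 was also low in both states, at 0.935 and 2.24 CPM, while clone 8 was at 15 CPM as a progenitor and 2.27 CPM as a monocytic cell. The r of Bmpr1a was 0.81 in the earlier-numbered and 0.85 in the later-numbered clones. In the later-numbered clones the rank correlation was 0.42, and r was 0.62 without clones 21 and 25. Over all 24 clones the 6 lowest clones were the same 6 in both states. Bmpr1a was the only one of the 10 genes with all 6 of its lowest clones shared.

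Tns1 ran from 0 CPM (clone 25) through a median of 36.8 to 98.3 CPM (clone 1) in progenitors, and from 0 CPM (clone 25) through 39.6 to 352 CPM (clone 5) in monocytic cells. Clone 9 was the lowest of clones 1 to 13 in both states, at 21 and 2.72 CPM. The r of Tns1 was 0.79 in the earlier-numbered and 0.92 in the later-numbered clones. Without clones 21 and 25 the second value was 0.21, so in that set the correlation rested on those clones.

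Spint2 ran from 1.25 CPM (clone 25) through a median of 113 to 261 CPM (clone 7) in progenitors, and from 0 CPM (clone 25) through 25.8 to 134 CPM (clone 8) in monocytic cells. Clones 4, 9 and 19 were among the 6 highest in both states. The r of Spint2 was 0.51 in the earlier-numbered and 0.88 in the later-numbered clones, and over all clones it fell from 0.83 to 0.61 without clone 25.

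Lrrk2 had the widest range in monocytic cells. It ran from 0 CPM (clone 25) through a median of 3.84 to 39.4 CPM (clone 20) in progenitors, and from 0 CPM (clone 25) through 166 to 946 CPM (clone 20) in monocytic cells. Clone 21 was second to clone 20 in both states, at 14.8 and 786 CPM, and clone 24 was next above clone 25, at 0.313 and 6.21 CPM. The progenitor values of clones 21 and 24 rested on 6 and 2 counts. Clones 16 and 15 were close to clone 21 as progenitors, at 13.7 and 13.3 CPM on 197 and 234 counts, so its second place there is uncertain. The r of Lrrk2 was 0.61 in the earlier-numbered and 0.95 in the later-numbered clones, and 0.92 in the latter without clones 21 and 25. Its rank correlation was 0.36 and 0.96 in the same sets. Clone 9 was the lowest of clones 1 to 13 in both states, at 1.58 and 26.5 CPM.

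Cln8 ran from 0 CPM (clone 25) through a median of 12.1 to 82.0 CPM (clone 18) in progenitors, and from 0.533 CPM (clone 25) through 69.1 to 271 CPM (clone 15) in monocytic cells. Clones 15 and 18 were among the 6 highest in both states, and clone 9 was the lowest of clones 1 to 13 in both, at 5.48 and 6.38 CPM. The r of Cln8 was 0.53 in the earlier-numbered and 0.92 in the later-numbered clones, and over all clones it was 0.58 without clone 25.

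Gkap1 was low throughout. It ran from 0 to 7.88 CPM (clone 4) in progenitors with a median of 0.943, and from 0 to 1.14 CPM (clone 19) in monocytic cells with a median of 0.127. In monocytic cells 17 of the 24 libraries had 3 counts or fewer and 9 had 0. Clones 1, 4, 12 and 24 were among the 6 highest in both states, and r was 0.70 in the earlier-numbered and 0.81 in the later-numbered clones.

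Galnt1 had the narrowest spread. It ran from 127 CPM (clone 20) through a median of 232 to 294 CPM (clone 11) in progenitors, and from 43.0 CPM (clone 21) through 101 to 137 CPM (clone 9) in monocytic cells. Among progenitors of clones 1 to 13 the whole range was 0.35 on the log2 scale. The r of Galnt1 was 0.49 in the earlier-numbered and 0.78 in the later-numbered clones. After the log2 library total was regressed out it was 0.28, against 0.83 before.

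Smpdl3a was lower on average in clones 15 to 25, though the ranges of the sets overlapped in both states. Clones 1 to 13 ran from 2.47 through a median of 6.25 to 15.3 CPM in progenitors and from 17.5 through 54.0 to 156 CPM in monocytic cells. Clones 15 to 25 ran from 0 through 0.0744 to 2.82 CPM in progenitors and from 0 through 0.433 to 55.7 CPM in monocytic cells. Of these 11 clones, 10 lay below every one of clones 1 to 13 in progenitors and 8 did so in monocytic cells. In each state 7 of the 11 had 3 counts or fewer. Within the sets r was 0.69 and 0.83, and on residuals of the log2 library total it was 0.17 against 0.89 before. Clones 17, 22, 23 and 24 had 7.88 to 55.7 CPM as monocytic cells, while the other 7 of the set had at most 0.617 CPM.

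Abca8b ran from 0 CPM (clones 20 and 21) through a median of 2.19 to 12 CPM (clone 17) in progenitors, and from 0 CPM in the same 2 clones through 6.15 to 51.8 CPM (clone 1) in monocytic cells. Clone 25, the lowest clone of Lrrk2, Tns1, Spint2 and Cln8, was among the 6 highest of Abca8b in both states, at 7.77 and 24.3 CPM. Within the sets r was 0.75 and 0.88.

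Akr1c13 ran from 1.75 CPM (clone 20) through a median of 30.8 to 74.1 CPM (clone 13) in progenitors, and from 0.45 CPM (clone 20) through 18 to 72.3 CPM (clone 5) in monocytic cells. Every progenitor of clones 15 to 25 lay below every progenitor of clones 1 to 13. The share of all genes without overlap between the sets was not counted. Such a difference between the sets also adds to the correlation over all clones that chose the genes. The r of Akr1c13 was 0.28 in the earlier-numbered and 0.95 in the later-numbered clones, and on residuals of the log2 library total it was 0.52.

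**Figure D2:**
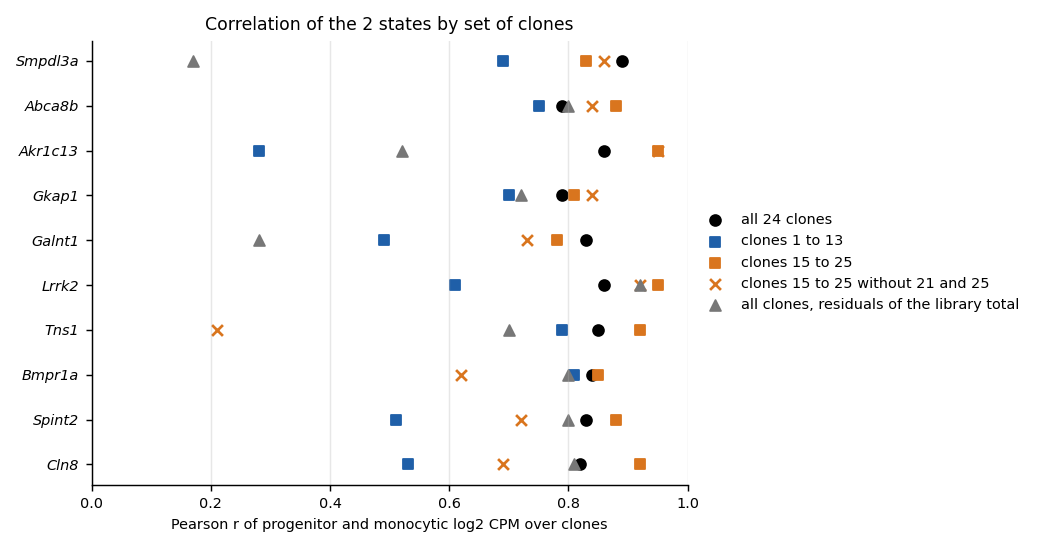
Pearson r (x) between the progenitor and monocytic log2 CPM of each gene (y) over all 24 clones, over each clone set, over clones 15 to 25 without clones 21 and 25, and over all clones on residuals of the log2 library total. Bmpr1a, Tns1 and Abca8b stay at 0.75 or above in both full sets, Akr1c13 is at 0.28 in clones 1 to 13, and Smpdl3a and Galnt1 fall to 0.17 and 0.28 on the residuals.

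Clone 25 was among the 6 lowest clones in both states for 8 of the 10 genes and among the 6 highest for 1. Its libraries held 3.25 M counts as a progenitor and 3.94 M as a monocytic cell, where 3 counts equal 0.923 and 0.761 CPM. Clone 21 was low in both states for 6 genes and high in both for Lrrk2 and Bmpr1a, and its progenitor library was the shallow one named above. Over all clones without clone 25, r of the 10 genes lay between 0.582 and 0.899.

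Centred on the clone set, the genes did not share 1 clone order. Over their 45 pairs the median r was 0.20 in progenitors and 0.17 in monocytic cells. Tns1 and Cln8 (0.78 and 0.79) and Lrrk2 and Cln8 (0.74 and 0.61) were the 2 pairs at 0.6 or above in both states. Clone 25 was the lowest clone of Tns1, Lrrk2 and Cln8 in both states, and the pair values were not computed without it. Abca8b and Lrrk2 were opposed, at -0.80 in progenitors and -0.58 in monocytic cells. Clones 20 and 21 had 0 counts of Abca8b and were among the highest of Lrrk2 in both states. Clone 25 had 0 counts of Lrrk2 and was among the highest of Abca8b. In the clone 21 progenitor 3 counts equal 8.29 CPM, so its 0 limits little. No value of this pair was computed without these clones.

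Some of the levels moved with lists of cell type markers. Each gene's level was correlated with the mean log2 CPM of the tested genes of a marker list, over 24 clones of a state (set-centred). Of 140 such correlations, 10 were 0.6 or more in size. Only 3 of the 7 macrophage and dendritic cell genes entered their mean, and 4 of the 8 erythroid and megakaryocyte genes. In monocytic cells the neutrophil list ran against Smpdl3a (-0.75) and Galnt1 (-0.66), and the macrophage and dendritic cell list ran with Cln8 (0.70). In progenitors the monocyte and neutrophil lists ran with Lrrk2 (0.70 and 0.65), and the progenitor and neutrophil lists ran against Abca8b (-0.67 and -0.65). The other 3 were in monocytic cells, where the progenitor list ran with Galnt1 (0.67), and the erythroid and megakaryocyte list and the mast cell and basophil list ran with Akr1c13 (0.64 and 0.60). These points share libraries and depth, and their part in the clone order was not tested.

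Lrrk2, Smpdl3a, Cln8, Abca8b and Bmpr1a rose from progenitor to monocytic cells, and Gkap1, Spint2, Galnt1 and Akr1c13 fell. In the edgeR quasi-likelihood test with the clone as a block, 9 of the 10 passed an adjusted p of 0.05, against a background of 78.6% of the tested genes (38.5% higher and 40.1% lower in monocytic cells). The same number passed without clones 17, 19 and 22. Lrrk2 rose most, by 4.71 on the log2 scale (SE 0.274, adjusted p = 2.14e-14), and was higher as a monocytic cell in 23 of 24 clones, with clone 25 at 0 in both. Smpdl3a rose by 3.19 (SE 0.282), Cln8 by 2.27 (SE 0.224) and Abca8b by 1.37 (SE 0.316). Gkap1 fell by 2.74 (SE 0.284), Spint2 fell by 2.14 (SE 0.251) and Galnt1 fell by 1.24 (SE 0.0742), the last in 24 of 24 clones.

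Bmpr1a and Akr1c13 changed least among the 9. Bmpr1a was higher by 0.49 (SE 0.208, edgeR adjusted p = 0.0352), in 15 of 24 clones, and the adjusted p was 0.0554 without clone 21, 0.146 without the clone block, 0.127 with no filter on low counts, and 0.207 and 0.0667 in the earlier-numbered and the later-numbered clones alone. Without clones 17, 19 and 22 it was 0.0443. Akr1c13 fell by 0.39 (SE 0.147, edgeR adjusted p = 0.0181), in 18 of 24 clones, and the adjusted p was 0.37 without the clone block and 0.428 in the later-numbered clones alone. The call of Abca8b was also lost in the later-numbered clones alone, at 0.31 (edgeR adjusted p = 0.598). Tns1 differed by 0.20 (SE 0.272, edgeR adjusted p = 0.499) and was higher in 10 clones and lower in 13.

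The size of the change was also compared between the clone sets by an interaction term. In edgeR 3 of the 10 genes passed, against a background of 23.7%. Lrrk2 changed by 5.37 in the earlier-numbered and by 3.73 in the later-numbered clones, an interaction of -1.69 (SE 0.370, adjusted p = 0.00217). Abca8b changed by 1.96 and 0.31, an interaction of -1.67 (SE 0.556, adjusted p = 0.0317). Smpdl3a had a fitted change of 2.87 and 4.23, an interaction of 1.63 (SE 0.552, adjusted p = 0.0346).

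For Smpdl3a the direction of that difference depended on how clones without reads were weighed. The mean of the differences per clone, with clones at 0 counted equally, was 2.85 ± 0.74 (SD, n = 13) in the earlier-numbered and 1.82 ± 2.64 (SD, n = 11) in the later-numbered clones. For Lrrk2 the same means were 5.31 ± 0.70 and 3.33 ± 1.58, and for Abca8b 1.85 ± 1.15 and 0.26 ± 1.21. Without the clone block none of the 3 interactions passed in edgeR (adjusted p = 0.549, 0.144 and 0.176 for Lrrk2, Abca8b and Smpdl3a). Without clones 17, 19 and 22, the calls of Smpdl3a (1.45, edgeR adjusted p = 0.127) and Abca8b (-1.11, edgeR adjusted p = 0.25) were lost, and Lrrk2 was at -1.57 (edgeR adjusted p = 0.0216). The sets also differ in depth, and the set and the depth cannot be told apart.

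**Figure D3:**
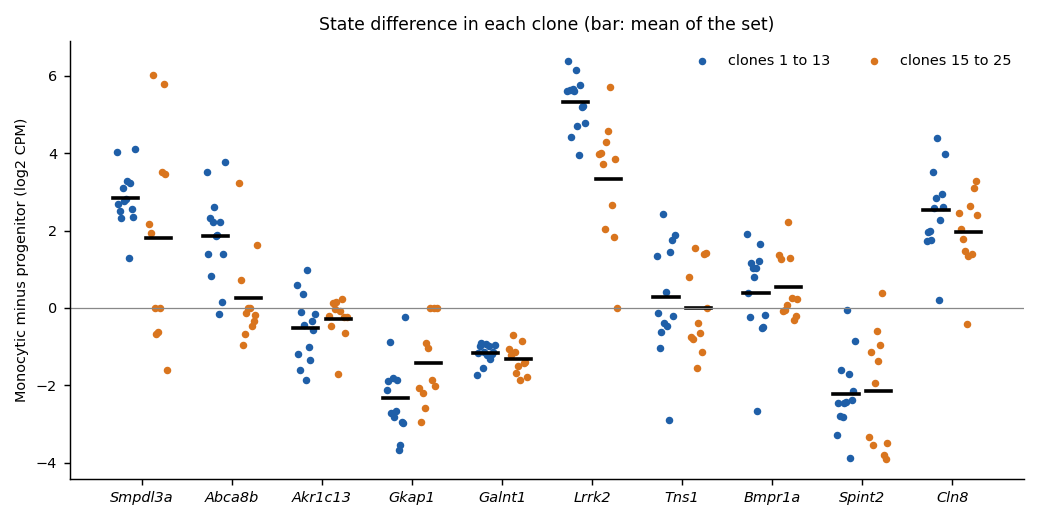
Monocytic minus progenitor level (y, log2 CPM) of each gene (x), 1 point per clone, blue for clones 1 to 13 and orange for clones 15 to 25. Black bars are the mean of the set. Lrrk2 lies above 0 in every clone but clone 25, Galnt1 lies below 0 in all 24, and Tns1 and Akr1c13 spread over 0.

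Genes that work with these 10 were read from 9 lists compiled around the members, with 110 tested genes other than the members. Of these, 68 rose and 25 fell between progenitor and monocytic cells, and their median log2 fold change was 0.70 against -0.02 for all genes. Of all tested genes 38.5% rose and 40.1% fell, and the counts of the single lists below are to be read against those shares. In the correlation over clones, which did not choose these genes, 7 of the 110 passed with a positive r (background 8.14%), with a median r of 0.14 against 0.19 for all genes.

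In the BMP pathway 11 of 18 tested genes rose and 6 fell in edgeR. The receptor gene Acvrl1 rose by 6.23 (SE 0.406) and the target genes Id2 and Id1 by 5.72 (SE 0.354) and 2.75 (SE 0.249), while the co-receptor gene Eng fell by 6.13 (SE 0.518). Smad1, which carries the signal of Bmpr1a, fell by 2.50 (SE 0.279) and had an r of 0.61 over clones (adjusted permutation p = 0.0320, rho 0.36 with p = 0.0839). It was 0.29 without the 2 clones farthest from the median, so it rested on those clones.

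Among the Rab substrates and partners of Lrrk2, 14 of 19 rose and 1 fell. Rab3d rose by 2.75 (SE 0.134), Rab32 by 2.27 (SE 0.130) and Rab5b by 2.09 (SE 0.148), while Rab38 fell by 3.50 (SE 0.214). The r over clones passed for Rab3d (0.73, adjusted permutation p = 0.00346, rho 0.63 with p = 0.00135) and Rab8a (0.66, adjusted permutation p = 0.0104, rho 0.54 with p = 0.00720). In clones 1 to 13 alone both were close to 0, at 0.05 and 0.12, and in clones 15 to 25 they were 0.72 and 0.55.

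Among the tensins and integrin adhesion genes, 10 of 16 rose and 3 fell. The kinase gene Ptk2b rose by 2.23 (SE 0.149), paxillin (Pxn) by 1.77 (SE 0.118) and talin 1 (Tln1) by 1.72 (SE 0.159), and Dlc1 fell by 4.35 (SE 0.376). Talin 2 (Tln2) fell by 1.60 (SE 0.287). Its r over clones was 0.76 (adjusted permutation p = 0.00240, rho 0.78 with p = 2.00e-05), 0.75 without the 2 farthest clones, and 0.69 and 0.85 in the 2 sets. Tln2 was low, with a median of 2.17 CPM in progenitors and 0.674 CPM in monocytic cells. In monocytic libraries of clones 15 to 25, 3 counts equal 0.329 to 1.64 CPM.

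Around Spint2, 1 of 6 tested genes rose and 3 fell. Hepatocyte growth factor (Hgf) fell by 2.19 (SE 0.309), matriptase (St14) fell by 1.54 (SE 0.249) and the receptor gene Met fell by 1.46 (SE 0.240), and hepsin (Hpn) rose by 0.57 (SE 0.221). Hpn had an r of 0.59 (adjusted permutation p = 0.0345, rho 0.61 with p = 0.00183), 0.37 without the 2 farthest clones, and 0.55 and 0.60 in the sets.

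Of the ceroid lipofuscinosis and sphingomyelinase genes listed around Cln8 and Smpdl3a, 17 of 21 rose and 2 fell. Smpdl3b rose by 4.14 (SE 0.422), the liver X receptor gene Nr1h3 by 3.83 (SE 0.332) and progranulin (Grn) by 2.47 (SE 0.154), while the cathepsin gene Ctsf fell by 2.65 (SE 0.421). Cln3 had an r of 0.64 (adjusted permutation p = 0.0200, rho 0.57 with p = 0.00436), 0.33 without the 2 farthest clones, and acid ceramidase (Asah1) one of 0.55 (adjusted permutation p = 0.0388, rho 0.48 with p = 0.0200). Within the sets Cln3 was at 0.45 and 0.65 and Asah1 at -0.17 and 0.26.

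In the remaining 4 lists no gene passed the correlation over all clones. In the ABCA family 4 of 5 rose and 1 fell, with Abca13 up by 6.67 (SE 0.525) and Abca2 down, at -1.76 (SE 0.148). Among aldo-keto reductases 2 of 6 rose and 3 fell, with Akr1b8 up by 5.98 (SE 0.593). Among O-glycosylation genes 6 of 16 rose and 6 fell, with Galnt9 up by 6.15 (SE 0.459) and Gcnt4 down, at -7.92 (SE 0.356). Galnt10, another of the enzymes that start O-glycosylation, had an r of 0.45 over all clones (adjusted permutation p = 0.141, rho 0.49 with p = 0.0159) and 0.27 without the 2 farthest. After centring on the clone set it passed, at 0.64 (adjusted permutation p = 0.0453), with 0.73 and 0.69 in the sets. Of the 110 related genes, Tln2 was the other that passed after centring, at 0.77 (adjusted permutation p = 0.0126), against a background of 1.15%. In cGMP signalling all 3 tested genes rose, Pde2a by 2.44 (SE 0.240).

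The chromosomal neighbours were also read, as the 2 nearest tested genes on each side of each member in the GRCm38 annotation. Of 40 neighbours 6 had a positive correlation past the threshold (background 8.14%), and 1 did after centring on the clone set, against a background of 1.15% for the centred test. That gene was 2210016F16Rik, on chromosome 13 like Gkap1 and on the same strand without overlap. Its r was 0.59 over all clones (adjusted permutation p = 0.0375, rho 0.57 with p = 0.00464) and 0.85 after centring (adjusted permutation p = 0.00447), with 0.89 in the earlier-numbered and 0.90 in the later-numbered clones. Without the 2 farthest clones the pooled value was 0.46. The later-numbered clones held few counts of this gene, at most 27 as progenitors (clone 15) and 14 as monocytic cells (clone 24). The r of 0.90 rested on these low counts, and the centred value includes them.

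2210016F16Rik also came first among the genes most like Gkap1 over clones. In progenitors it was highest in clones 1 and 4, at 23.9 and 19.3 CPM, and both were also highest as monocytic cells, at 8.27 and 7.28 CPM. Clones 20, 21 and 25 were at 0 in both states. In the clone 21 progenitor 3 counts equal 8.29 CPM, so that 0 limits little. As monocytic cells clones 17, 18, 19 and 22 had 2, 1, 3 and 2 counts. Gkap1 itself was at 4.19 and 7.88 CPM in the clone 1 and 4 progenitors. The other 5 neighbours were Ino80c (r = 0.79), Gm8759 (0.76), Glud1 (0.72), Cxcr2 (0.68) and Fbxo25 (0.64), and after centring none of them passed.

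For each member the genes most alike were ranked by the smaller of its 2 set-centred correlations, over progenitors and over monocytic cells of the 24 clones. Tns1 was most like Ahcyl2, at 0.95 in both states, and Lrrk2 most like the kinase gene Pak1, at 0.93 in both. Cln8 was most like Pkp4 (0.89 and 0.87), Abca8b like Clec2i (0.89 and 0.78) and Spint2 like Pdk3 (0.81 and 0.77). Without clone 25 the values were 0.81 and 0.91 for Tns1, 0.88 and 0.87 for Lrrk2, 0.67 and 0.72 for Cln8 and 0.89 and 0.73 for Abca8b, but 0.23 and 0.48 for Spint2 and its match. The remaining first matches were Extl2 for Galnt1, Zfp182 for Akr1c13, Dnajc10 for Smpdl3a and Sypl for Bmpr1a, with a smaller r of 0.75, 0.71, 0.70 and 0.51. Without clone 25 the match of Bmpr1a was at 0.33 and 0.37. Only the match of Gkap1 lay on the chromosome of its member among the 3 best of each gene. All these points share the clone libraries, and no p is given.

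Smpdl3a and Galnt1 were higher in every primary monocyte library than in every monocytic clone. These levels are CPM from 1 scaling of all 62 libraries. Clones and primary cells were not tested against each other, and each test below was fitted within its own groups. Smpdl3a was at 243 to 1627 CPM in the 14 primary libraries, above all 24 monocytic clones, whose highest was 149 CPM. Galnt1 was at 177 to 353 CPM, again above all 24 monocytic clones. Bmpr1a was at 0 to 5.2 CPM, with 7 libraries at 0, and 20 of the 24 monocytic clones were above every primary library. Lrrk2 was at 20.8 to 89.8 CPM, exceeded by 16 monocytic clones, and Tns1 at 0.645 to 32.4 CPM, exceeded by 14. Cln8, Spint2, Akr1c13, Gkap1 and Abca8b overlapped between the clones and the primary cells, and Abca8b was above every primary library in 10 monocytic clones. The share of all genes whose clones lay above or below every primary library was not counted.

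**Figure D4:**
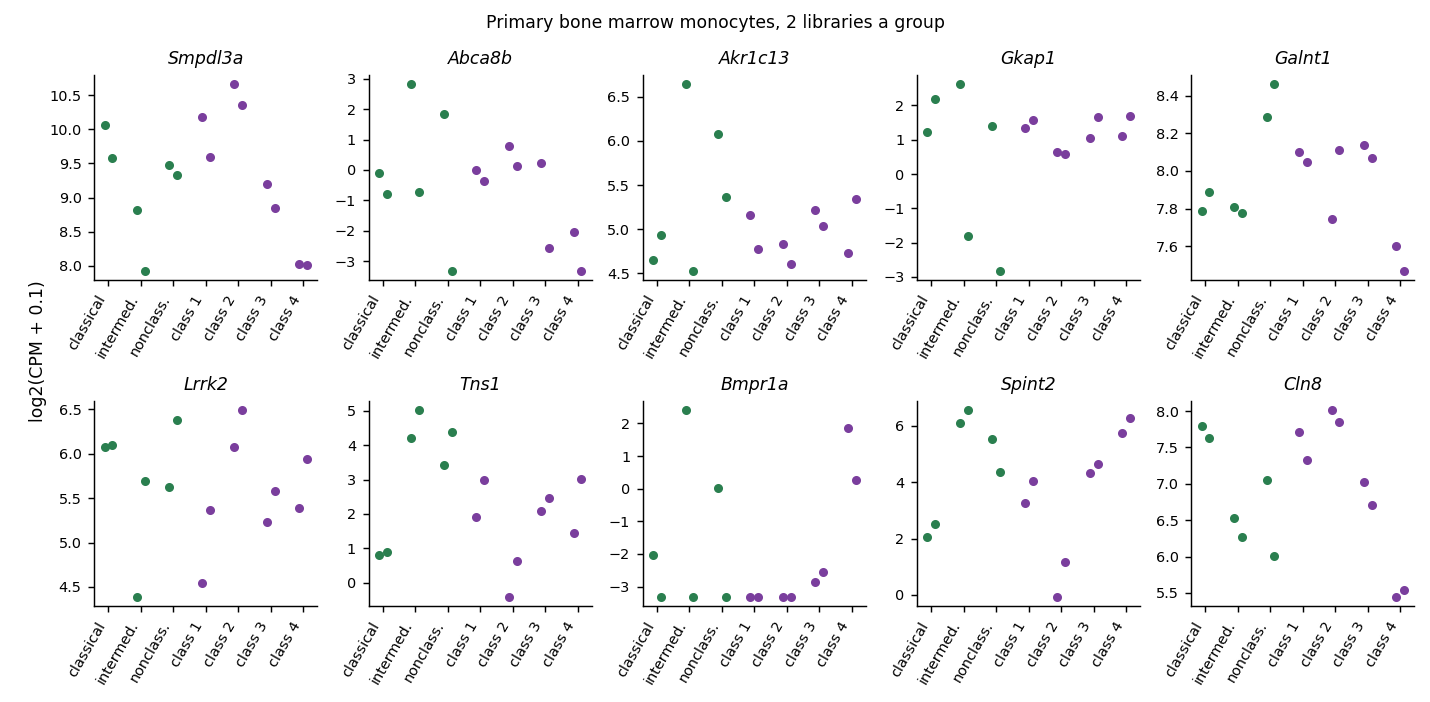
Level of each gene in primary monocytes, as log2(CPM + 0.1), with 2 libraries for each of the classical, intermediate and nonclassical subsets (green) and classes 1 to 4 (purple). Spint2 and Tns1 are lowest in classical cells among the subsets, Smpdl3a and Cln8 are lowest in class 4 among the classes, and the 2 intermediate libraries differ widely for Abca8b, Akr1c13, Gkap1 and Bmpr1a.

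Among the subsets, Spint2 and Tns1 were lowest in classical monocytes. Spint2 was at 4.04 and 5.59 CPM in classical, 68.6 and 93.6 CPM in intermediate and 46.6 and 20.5 CPM in nonclassical cells. Tns1 was at 1.65 and 1.76 CPM in classical, 18.4 and 32.4 CPM in intermediate and 10.7 and 20.7 CPM in nonclassical cells. In neither gene did the classical libraries overlap with the others, but the share of all genes without such overlap was not counted.

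In edgeR, Spint2 was higher in intermediate than in classical cells by 4.14 (SE 0.582, adjusted p = 0.0461), the 1 of 10 genes to pass against a background of 2.11%. Tns1 was higher in nonclassical than in classical cells by 3.22 (SE 0.589, adjusted p = 0.0485), again 1 of 10, against 5.82%. The other 2 contrasts of these genes missed the threshold narrowly, with 2.89 (SE 0.551, edgeR adjusted p = 0.0519) for Spint2 in nonclassical cells and 3.96 (SE 0.608, edgeR adjusted p = 0.0520) for Tns1 in intermediate cells. Both calls were lost without either classical library, with edgeR adjusted p of 0.333 to 0.412. Leaving out either intermediate library also ended them (0.118 and 0.124 for Spint2, 0.0632 and 0.0766 for Tns1), as did leaving out nonclassical replicate 2 for Tns1 (0.0890), and with the replicate number as a block the edgeR adjusted p was 0.0611 and 0.0662. In the test of any difference among the 3 subsets edgeR called 0 of the 10 genes (background 2.95%), 4 had an unadjusted p under 0.05, and DESeq2 called 5.

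Other cell types' markers differed between the same libraries. The mast cell and basophil list summed to 17.1 and 11.4 CPM in classical, 3716 and 8747 CPM in intermediate and 1589 and 5916 CPM in nonclassical cells. The progenitor list summed to 743 and 1043 CPM in classical, 4112 and 12943 CPM in intermediate and 325 and 514 CPM in nonclassical cells. The B and T cell list summed to 12.8 and 14.6, 334 and 612, and 1302 and 1070 CPM in the same order. Their part in the difference of Spint2 and Tns1 was not tested. Replicates of a subset also diverged: Bmpr1a had 114 and 0 counts in the intermediate libraries and 20 and 0 in the nonclassical ones, and Gkap1 had 133 and 4 counts and 55 and 1.

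Among the 4 classes, 6 of the 10 genes differed in the edgeR test of any difference, Smpdl3a, Cln8, Spint2, Bmpr1a, Lrrk2 and Galnt1, against a background of 43.8%. Smpdl3a was at 1158 and 770 CPM in class 1, 1627 and 1318 in class 2, 590 and 460 in class 3 and 261 and 257 CPM in class 4. Cln8 followed the same order, at 209 and 161, 258 and 230, 130 and 105, and 43.4 and 46.3 CPM. Spint2 ran the other way, at 9.53 and 16.2 CPM in class 1, 0.849 and 2.13 in class 2, 20.1 and 24.6 in class 3 and 53.9 and 77.9 CPM in class 4. For all 3 genes no libraries of classes next to each other in level overlapped, but the share of all genes without such overlap was not counted. Not every step of that order passed in edgeR. Class 2 against class 1 missed the threshold for Smpdl3a (adjusted p = 0.0973) and Cln8 (adjusted p = 0.137). Class 3 against class 1 missed it for Spint2 (adjusted p = 0.259), and class 4 was not tested against class 3.

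Class 4 differed most from class 1. There 5 of the 10 genes passed in edgeR, against a background of 25.1%. Cln8 was lower in class 4, with a log2 fold change of -2.03 (SE 0.180, adjusted p = 3.75e-04), and Smpdl3a likewise at -1.89 (SE 0.224, adjusted p = 0.00107). Spint2 was higher by 2.36 (SE 0.429, adjusted p = 0.00641), though the adjusted p was 0.0525 without class 1 replicate 1. Galnt1 was at -0.54 (SE 0.151, adjusted p = 0.0354), a call lost without either class 1 library, either class 3 library or class 4 replicate 2 (adjusted p from 0.0594 to 0.161).

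Bmpr1a had 0 counts in both class 1 libraries and 100 and 29 counts in class 4. Against a floor of 3 counts over the class 1 group (0.0548 CPM), class 4 was at least 42.5-fold higher (edgeR adjusted p = 0.0203, and 0.0720 and 0.0761 without either class 1 library). Class 4 also carried more neutrophil markers, at 51365 and 69567 CPM against 807 and 1339 CPM in class 1, more progenitor markers (10456 and 11060 against 712 and 996 CPM) and more erythroid and megakaryocyte markers (2241 and 2789 against 43.5 and 71.7 CPM). Their part in the class 4 differences was not tested.

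Class 2 and class 3 differed less from class 1. In class 2, 2 of 10 genes passed in edgeR (background 9.29%). Lrrk2 was at 67.4 and 89.8 CPM against 23.2 and 41.1 CPM in class 1, higher by 1.36 (SE 0.321, adjusted p = 0.0371), and Spint2 was at -3.08 (SE 0.474, adjusted p = 0.00604). The call of Lrrk2 was lost without class 1 replicate 1, either class 2 library or either class 3 library, with edgeR adjusted p of 0.0643 to 0.197. In class 3, 2 of 10 passed (background 13.4%), Smpdl3a at -0.86 (SE 0.218, adjusted p = 0.0375) and Cln8 at -0.64 (SE 0.174, adjusted p = 0.0477). Both were lost without class 1 replicate 1 (edgeR adjusted p = 0.212 and 0.267), without either class 2 library and without either class 3 library, and Cln8 also without class 1 replicate 2 (0.0531). Class 3 held more neutrophil markers than class 1 (10412 and 6476 against 807 and 1339 CPM), more progenitor markers (6176 and 7893 against 712 and 996 CPM) and more mast cell and basophil markers (878 and 387 against 12.2 and 21.2 CPM). In class 2 the neutrophil markers were at 1478 and 1714 CPM, the progenitor markers at 173 and 151 CPM, and the mast cell and basophil markers at 3.46 and 7.94 CPM. Their part in these differences was not tested.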

How the data were processed

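RNA-seq gene counts of 62 libraries were used. Per the submitters' processing notes, the authors worked with STAR 2.7.3a, HTSeq 0.6.0 and the build mm9. The deposited table holds whole-number counts per gene, not normalized. Strand setting, annotation release and filters are not given in the sources used here. The columns that no label of a sample fits number 1, and it was left out. Gene names came from the table, and 32897 of its 37620 Ensembl IDs matched the reference.

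Genes were kept by edgeR's filterByExpr by group (minimum count 10), scaled by TMM, and tested with edgeR 4.0.16 in R 4.3.3 (glmQLFit, glmQLFTest) with Benjamini-Hochberg adjustment over all tested genes at 0.05. Levels are CPM, or log2 CPM with a prior count of 2. The state fit used the 48 clone libraries with the clone as a block, because the series' design text pairs progenitors with mature cells of the same clone. The deviations of a clone's 2 libraries from the state means correlated at 0.24 on average (from -0.05 to 0.50). The primary fits had no block, and the labels do not say what a replicate number shares. Deviations of same-numbered libraries correlated at 0.18, 0.28 and 0.38 between the subsets and at -0.01 to 0.07 between the classes, so the subset calls are also given with the replicate number as a block. Correlations over clones used 100000 permutations of the clone pairing (two-sided, smallest p 1e-05), adjusted over 11614 genes, in Python 3.11.15 with numba 0.67.0. The fits and the correlation test were tested on simulated data, where the subset fit did not recover changes of the simulated size. Alternatives were DESeq2 1.42.0, its size factors, other filters, scalings, blocks and subsets of clones or libraries.

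Named genes were the 10 members, at most 4 genes per list by the size of change or that passed the correlation test, and the 3 genes most alike per member. Members and lists were chosen with earlier results of these data known. Sequencing depth sets how low a level can be seen: 3 counts equal 0.0634 to 8.29 CPM in the clone libraries and 0.0857 to 0.142 CPM in the primary ones, and such floors cover counting error only.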

Additional observations from a re-analysis of the deposited data

Results flagged for a closer look

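The change from progenitor to monocytic cell differed between clones 1 to 13 and clones 15 to 25 for 3 of the 10 genes, by an interaction term in edgeR. The interaction was 1.63 for Smpdl3a (adjusted p = 0.0346), -1.67 for Abca8b (adjusted p = 0.0317) and -1.69 for Lrrk2 (adjusted p = 0.00217), on the log2 scale and as clones 15 to 25 minus clones 1 to 13. Of all tested genes 23.7% passed the same test. In clones 15 to 25, 7 of 11 progenitor libraries had 3 or fewer counts of Smpdl3a, 3 had 3 or fewer of Abca8b and 2 had 3 or fewer of Lrrk2. Without clones 17, 19 and 22 the edgeR adjusted p was 0.127 for Smpdl3a, 0.25 for Abca8b and 0.0216 for Lrrk2. With DESeq2 the adjusted p was 0.169 for Smpdl3a, and with no filter on low counts the edgeR adjusted p was 0.0595 for Abca8b.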

How the results depend on the processing

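Of 236 counts recomputed under alternatives, 137 stayed within 1.5 times the value reported, and of 880 values of single genes none reversed sign among called results. Without the replicate block on clones the interaction called 0 members in place of 3, and without clones 17, 19 and 22 it called 1 member, and 1778 genes in place of 2755. In the subsets, DESeq2 called 5, 4 and 3 members for any difference, intermediate and nonclassical cells, in place of 0, 1 and 1, and 3613, 3111 and 3366 genes in place of 412, 294 and 811. No filter gave 1 and 2 members for the first and the second, DESeq2's size factors 2 for nonclassical cells, and the replicate block 0 and 0 for intermediate and nonclassical cells. In class 2, DESeq2 and no filter each called 4 members in place of 2, and 2234 and 2325 genes in place of 1272. In class 3, DESeq2's size factors called 1 member in place of 2 (Cln8, adjusted p = 0.0508), and DESeq2 2797 genes in place of 1831. Leaving out 1 primary library at a time gave 0 to 1, 0 to 1 and 0 to 2 members and 0 to 414, 0 to 220 and 0 to 930 genes for any subset difference, intermediate and nonclassical cells. For any class difference it gave 4 to 6 members and 4303 to 7391 genes, for class 2 it gave 1 to 3 and 516 to 2360, for class 3 it gave 0 to 2 and 625 to 2990, and for class 4 it gave 2 to 5 and 1644 to 4350.

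Positive correlations were the most dependent on the choice of clones. All genes passing numbered 945, and 422 by rank correlation, 133 centred on the clone set (94 also without clone 25), 444 without the 2 farthest clones, 99 on residuals of the log2 total, 3 in clones 1 to 13, 54 in clones 15 to 25, 42 there without clone 21 and 0 without clones 21 and 25. The 7 related genes became 4, 2 (1), 2, 2, 0, 0, 1 and 0 in the same order. The 6 neighbours became 1 when centred (1 without clone 25 too), 0 on residuals, 0 in clones 1 to 13, 1 in clones 15 to 25, and 0 there without clone 21 and without clones 21 and 25. In clones 15 to 25 without clones 17, 19 and 22, 0 of all genes, 0 related genes and 0 neighbours passed, and over all clones without those 3 the numbers were 753, 6 and 5. Settings without clone 25 or without clones 17, 19 and 22, and clones 15 to 25 without clone 21 or without both, were chosen after seeing the data. Fewer clones also lower the power of the permutation test. The cause of the other changes was not tested.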
